A study of Mus musculus with 24 samples.

Results

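The Rab genes described here are the 67 genes, of 23235 listed, whose symbol is Rab followed by a digit. They were chosen by symbol alone. Of these, 57 encode Rab GTPases. Another 9 encode proteins that act on Rabs (Rab11fip1 to Rab11fip5, Rab3gap1, Rab3gap2, Rab3ip and Rab3il1), and 1 is listed as a pseudogene (Rab42-ps), so the symbol rule covers mostly, but not only, GTPases. The 24 libraries of mouse oocyte and zygote RNA form 12 groups of 2, from 3 genotypes and 4 stages. The genotypes were Cnot6l-/-, a group labelled Btg4-/- and wild type (WT), all C57BL/6 and at postnatal day 21. Oocytes at the germinal vesicle stage (GV) were taken 48 h after PMSG, a hormone that stimulates follicle growth. Oocytes in the first meiotic division (MI) had been cultured for 8 h and eggs arrested in the second (MII) for 16 h, and zygotes were taken 24 h after hCG, which triggers ovulation. Stage therefore goes with culture and the way of collection, and in comparisons between stages these cannot be told apart. CNOT6L is one of the deadenylases of CCR4-NOT, the complex that removes poly(A) tails from mRNA, and BTG4 is an adaptor that binds it. The labels describe neither allele, nor whether the 2 libraries of a group came from separate animals, so the p-values rest on a spread between libraries that may be technical. Oocytes were pooled, with 100 per library in the extraction protocol and a different number, 2, in the description of the series.

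Rab proteins are small GTPases that switch between a GDP-bound form in the cytosol and a GTP-bound form on membranes. Exchange factors (GEFs) load GTP, GTPase-activating proteins (GAPs) trigger its hydrolysis, and GDP dissociation inhibitors extract the inactive, prenylated protein from the membrane. Each Rab marks a compartment and recruits effectors for vesicle transport. In mouse oocytes, Rab11a-positive vesicles move the actin network that positions the spindle, and Rab3a and Rab27a are linked to the cortical granules that are released at fertilisation. Fully grown oocytes are transcriptionally silent, and many stored mRNAs are deadenylated and degraded during maturation.

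The ends of 3′ untranslated regions (UTRs) are shown because the poly(A) tail that CCR4-NOT shortens is added there. The 30-base stretches below are on mm9, 5′ to 3′ on the transcript strand, from the gencode vM1 transcript of each gene that has the longest 3′ UTR. Gene coordinates given further on are from the deposited table, and the Rab7 stretch lies beyond the gene end given there. Capitals mark a polyadenylation signal (AATAAA or ATTAAA) or a cytoplasmic polyadenylation element (TTTTAT or TTTTAAT), the site bound by CPEB proteins. Rab1, Rab3il1 and Rab7 are shown because they fell in WT MII eggs and were called higher than WT at MII in both other groups, Rab21 because it fell in WT and holds an element next to its signal. Rab14 and Rab6a kept the largest shares of their WT GV level at MII among the 22 Rab genes with at least 10 FPKM in WT GV oocytes.
Rab1 (chr11:20126819-20126848, plus strand): tgagaatttcacAATAAAatcatagtttac
Rab3il1 (chr19:10110043-10110072, plus strand): ctcgtgcttgggATTAAAcccaaatcctga
Rab7 (chr6:87949109-87949138, minus strand): gaacgtgatgccAATAAAatttaacaagaa
Rab21 (chr10:114726921-114726950, minus strand): TTTTATtgttATTAAAcaagtttccttctg
Rab14 (chr2:35035725-35035754, minus strand): ataaagtacctgtatctagATTAAAttgaa
Rab6a (chr7:107789747-107789776, plus strand): ggcatgtcctgaAATAAAtatcaattcaat
The 2 elements of Rab6a lie outside the stretch shown. A 3′ UTR of at least 100 bases was annotated for 46 of the 46 tested Rab genes, with a median length of 1608 bases against 1090 for the 9703 tested genes with such a UTR. Within its last 100 bases, 9 of the 46 held a cytoplasmic element (19.6%, against 19.9% of all) and 39 a polyadenylation signal (84.8%, against 78.7%). The 9 were Rab11a, Rab21, Rab22a, Rab2b, Rab3gap2, Rab5a, Rab6a, Rab8b and Rab9, which include genes that fell steeply in WT and genes that did not. Only the transcript strand was searched, and TTTTAAT can overlap AATAAA. A match describes these letters and is not a shown binding site.

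Values are FPKM as deposited, so levels are per transcript length and can be compared between genes. They are not shares of a fixed total: FPKM summed over all genes ranged between 49930 and 545784 and was highest at GV in each genotype. Results after median-ratio scaling, which evens out the libraries over the 3677 genes that exceed 1 FPKM everywhere, are therefore given beside those from the deposited values. Higher or lower after scaling is relative to those genes. In pooled oocytes, fewer cells of a type and less RNA per cell cannot be told apart. Whether the yield of an mRNA in these libraries depends on the length of its poly(A) tail was not tested. Higher, lower or kept FPKM may therefore differ from mRNA amount. Read depth is unknown. The Cnot6l transcript was at 3.4 to 7.26 FPKM in the 8 Cnot6l-/- libraries and at 7.07 to 73.9 FPKM in the 8 WT libraries. The Btg4 transcript was at 765 to 2515 FPKM in the libraries labelled Btg4-/- and at 554 to 2490 FPKM in WT, which does not check that label. Summed FPKM of 15 oocyte genes was 11770 to 13814 in Cnot6l-/-, 11760 to 14033 in the group labelled Btg4-/- and 12691 to 13358 in WT at GV. For 12 cumulus and granulosa genes the GV sums were 25.8 to 28.3 FPKM in Cnot6l-/-, 16.3 to 20.3 in the group labelled Btg4-/- and 19.4 to 25.8 in WT. The cumulus genes Ptx3, Foxl2 and Amh were at 0 in 23, 20 and 18 of the 24 libraries. Tnfaip6, Inhba, Gja1, Inha and Has2 were at 0 in 15, 7, 4, 4 and 3, and Bex1 and Fshr in 1 each. Cyp19a1 and Nr5a2 were above 0 in every library. Of the blood genes, Hba-a1 and Hbb-b1 were at 0 in all 24 libraries and Cd52 and Ptprc in 21 and 19, while Cd68 and Laptm5 were above 0 in every library. For 8 sperm genes the GV sums were 79.0 to 105 FPKM in Cnot6l-/-, 80.0 to 85.0 in the group labelled Btg4-/- and 49.8 to 52.6 in WT. Of these genes, Tnp1 was at 0 in all 24 libraries and Tnp2 and Prm1 in 20 and 17. Ldhc, Oaz3, Odf1, Odf2 and Prm2 were above 0 in every library. All 4 marker lists, the oocyte genes among them, also differed between groups after GV. At MI the oocyte gene sums averaged 11109 FPKM in Cnot6l-/-, 11910 in the group labelled Btg4-/- and 7211 in WT. The sums of the 6 blood genes averaged 2.04, 2.75 and 1.3 FPKM, in the same order. At MI the cumulus and granulosa sums averaged 15.9 FPKM in Cnot6l-/-, 12.9 in the group labelled Btg4-/- and 8.06 in WT. At MII these sums averaged 10.7 FPKM in Cnot6l-/-, 4.83 for the libraries labelled Btg4-/- and 5.79 in WT. The sperm gene sums averaged 71.0 FPKM in Cnot6l-/-, 68.2 for the libraries labelled Btg4-/- and 20.8 in WT at MI. At MII they averaged 25.7 FPKM in Cnot6l-/-, 13.1 for the libraries labelled Btg4-/- and 7.12 in WT. In WT the cumulus and granulosa sum and the sperm sum were thus lower at MI and MII than at GV, where they averaged 22.6 and 51.2 FPKM. At MI the sums of all 4 lists were higher in the other genotypes than in WT, as the Rab genes were. The part of these genes in the differences below was not tested.

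A gene was tested where its mean reached 1 FPKM in at least 1 group, which 46 of the 67 Rab genes did, 39 of them GTPases. These 46 passed in part because of the groups in which they are high. The other 21 stayed low, and 18 of them were under 1 FPKM in each library, with 1.41 FPKM, in Rab33a, as the highest value. Among them are Rab3c, Rab26, Rab27b and Rab37 of regulated secretion and the neuronal Rab6b, and Rab26 was listed at 0 in every library. A mean of at least 10 FPKM over all libraries was reached by 19 genes.

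**Figure D1:**
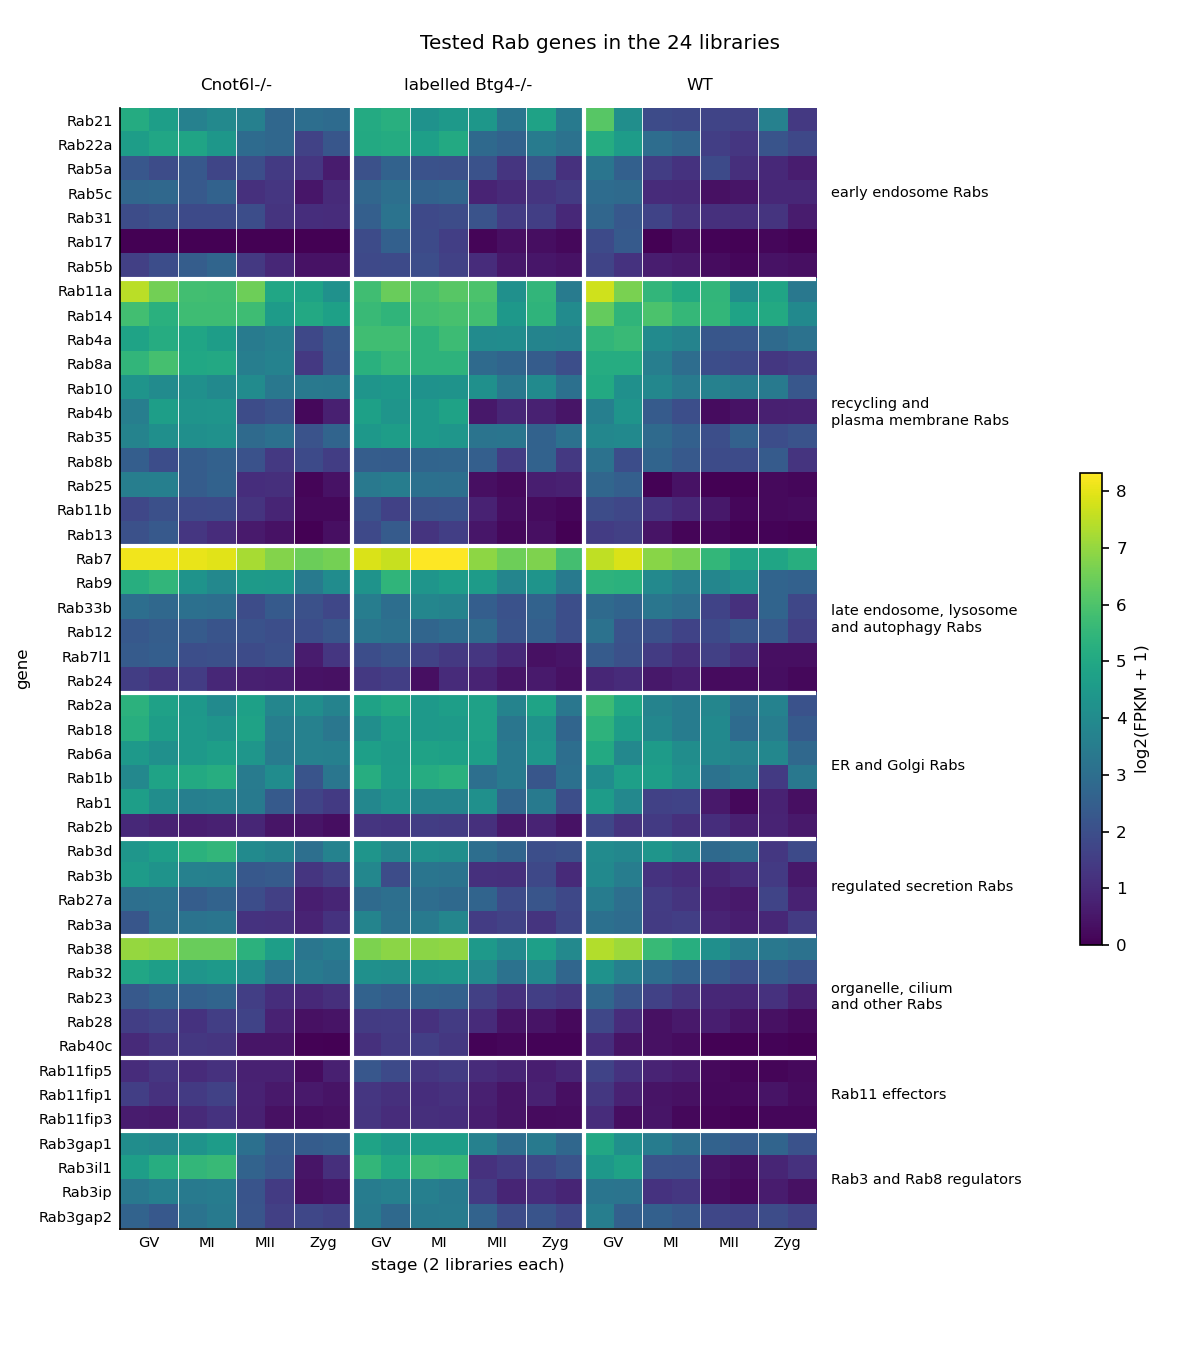
Level of the 46 tested Rab genes as log2(FPKM + 1) in each of 24 libraries, in rows grouped by the compartment or role of the protein and in columns by genotype (Cnot6l-/-, labelled Btg4-/-, WT) and stage. Rab7, Rab11a and Rab38 are the brightest rows, the MI columns of WT are darker than those of the other genotypes, and Rab17 is dark in all 8 Cnot6l-/- columns.

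In WT GV oocytes the transcripts of 3 Rab genes stood well above the others. Rab7 (chr6:87950429-87963684, minus strand), which drives late endosomes to fuse with lysosomes, averaged 207 ± 32.0 FPKM (SD, n = 2). Rab11a (chr9:64563107-64585563, minus strand), the Rab of recycling endosomes, averaged 154 ± 77.4 FPKM, and Rab38 (chr7:95578783-95640082, plus strand), known for melanosomes and other lysosome-related organelles, 151 ± 18.9 FPKM. Neighbours in this order do not differ beyond their spread, while both Rab7 libraries were above both Rab38 libraries. Rab14 followed at 62.5 ± 27.6 FPKM, below both Rab38 libraries, then Rab4a at 46.3 ± 3.90, Rab21 at 43.4 ± 38.2, Rab2a at 40.5 ± 14.9 and Rab9 at 39.8 ± 1.83, and from Rab14 to Rab9 neighbours do not differ beyond their spread. WT GV library 1 was above library 2 for Rab11a, Rab14 and Rab21, as for 37 of the 46 tested Rab genes and 71.9% of all tested genes. All Rab genes together made up between 0.189% and 0.32% of summed FPKM in every library.

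Most Rab transcripts fell during maturation of WT oocytes, as most other transcripts did. Against WT GV oocytes, 35 of 46 were called at MI and 41 at MII (adjusted p under 0.05, limma), each of them lower (76.1% and 89.1%). The median log2 difference was -1.16 at MI and -1.54 at MII for the Rab genes, against -0.95 and -1.37 over all 10884 genes tested. Of all genes tested, 65.1% were called lower and 0.753% higher at MI, and 83.4% lower and 0.0551% higher at MII. After scaling, 43 Rab genes were tested and the split changed. Then 13 were lower and 6 higher at MI (30.5% lower and 15.2% higher of all genes tested), and 19 lower and 8 higher at MII (43.2% and 14.9%). The all-gene median moved to -0.16 at MI and -0.37 at MII. At MII, 4 genes that were lower as deposited were higher after scaling, namely Rab10, Rab2b, Rab3d and Rab7l1. With single libraries left out, the deposited median log2 difference at MI ranged between -1.38 and -0.93 for the Rab genes. Over all genes tested it ranged between -1.13 and -0.8. Between WT zygotes and WT MII eggs, 2 genes were called, both lower, the secretory Rab3d and Rab7l1 (now named Rab29), where 3.22% of all genes were lower and 1.04% higher. After scaling 3 were lower and 9 higher (4.86% and 15.0% of all genes). As deposited, the median log2 difference between zygotes and MII eggs was -0.02 for the Rab genes and -0.04 over all genes tested. It ranged between -0.1 and 0.09 for the Rab genes when single libraries were left out, and between -0.12 and 0.01 over all genes tested. For each comparison, fold changes are given for at most 4 called genes in either direction that reach 5 FPKM in the group where they are higher. Rab7l1 lies under that level and was named after its values were seen.

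Rab3il1 had the most negative log2 difference of the tested Rab genes between MII and GV in WT. The gene (chr19:10092718-10110076, plus strand) encodes a GEF related to Rabin8 that acts on Rab3a and Rab8. Rab3il1 in Cnot6l-/- libraries was at 24.2 and 35.5 FPKM at GV, 44.9 and 47.6 FPKM at MI, 5.24 and 3.93 FPKM at MII and 0.39 and 1.17 FPKM in zygotes. Rab3il1 in the group labelled Btg4-/- was at 44.4 and 30.7 FPKM at GV, 50.01 and 46.6 FPKM at MI, 1.27 and 1.69 FPKM at MII and 2.52 and 3.35 FPKM in zygotes. Rab3il1 in WT libraries was at 20.5 and 26.8 FPKM at GV, 3.36 and 3.27 FPKM at MI, 0.37 and 0.25 FPKM at MII and 0.80 and 1.30 FPKM in zygotes. At MI all 4 libraries of the other genotypes were above 44 FPKM while both WT libraries were under 4. In WT the log2 difference from GV was -2.50 ± 0.27 (SE; adjusted p = 5e-07) at MI and -4.22 ± 0.27 (SE; adjusted p = 3.6e-10) at MII, which left 1.31% of the WT GV level at MII. Cnot6l-/- MII eggs kept 15.4% of their own GV level and those labelled Btg4-/- 3.94%. Against WT at MI, Rab3il1 was higher by 3.45 ± 0.27 (SE; adjusted p = 2.2e-08) on the log2 scale in Cnot6l-/- oocytes and by 3.51 ± 0.27 (SE; adjusted p = 1.4e-08) in the group labelled Btg4-/-, and these comparisons share their WT libraries. It was also called higher in both groups at MII, a call that did not hold after scaling in the group labelled Btg4-/- (0.78). Its relative Rab3ip, or Rabin8, the GEF of Rab8, was at 9.83 and 10.2 FPKM in Cnot6l-/-, 11.04 and 9.81 FPKM in the group labelled Btg4-/- and 1.31 and 1.54 in WT at MI, a log2 difference of 2.19 ± 0.23 (SE; adjusted p = 4.2e-07) for Cnot6l-/-.

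Among the ER and Golgi Rabs, the close relatives Rab1 and Rab1b are shown side by side. Both serve transport between the ER and the Golgi. Rab1 (chr11:20101605-20126859, plus strand) was at 24.2 and 15.8 FPKM at GV, 11.01 and 11.6 FPKM at MI, 9.65 and 4.12 FPKM at MII and 2.26 and 1.66 FPKM in zygotes in Cnot6l-/-. Rab1 in the group labelled Btg4-/- was at 13.5 and 17.7 FPKM at GV, 12.6 and 12.4 FPKM at MI, 17.1 and 5.52 FPKM at MII and 9.60 and 3.01 FPKM in zygotes. Rab1 in WT libraries was at 23.2 and 13.7 FPKM at GV, 2.04 and 2.16 FPKM at MI, 0.47 and 0.13 FPKM at MII and 0.72 and 0.28 FPKM in zygotes. Levels at GV overlapped, whereas at MI, at MII and in zygotes every library of the other genotypes lay above both WT libraries. The WT log2 difference from GV was -2.61 ± 0.47 (SE; adjusted p = 0.00014) at MI and -3.87 ± 0.47 (SE; adjusted p = 1.1e-06) at MII. At MII, Rab1 was higher than in WT by 2.52 ± 0.47 (SE; adjusted p = 0.00037) in Cnot6l-/-, 22.9 times the WT mean, and by 3.07 ± 0.47 (SE; adjusted p = 0.00012) in the group labelled Btg4-/-, 37.6 times. In zygotes it was higher by 2.14 ± 0.47 (SE; adjusted p = 0.0036) in the group labelled Btg4-/-, a call that was lost without library 1 of that group (1.43). Rab1b (chr19:5099207-5106996, minus strand) was at 13.8 and 27.6 FPKM at GV, 32.7 and 35.6 FPKM at MI, 10.03 and 15.7 FPKM at MII and 3.51 and 8.65 FPKM in zygotes in Cnot6l-/-. Rab1b in the group labelled Btg4-/- was at 35.1 and 22.6 FPKM at GV, 34.6 and 37.6 FPKM at MI, 7.27 and 9.63 FPKM at MII and 3.64 and 7.42 FPKM in zygotes. Rab1b in WT libraries was at 15.4 and 24.8 FPKM at GV, 24.2 and 17.7 FPKM at MI, 7.90 and 9.57 FPKM at MII and 1.67 and 8.98 FPKM in zygotes. Its groups overlapped at GV and in zygotes, and limma called it in none of the 13 comparisons, as deposited or after scaling. Whether the paralogs differ was not tested. Reads of close paralogs such as these could be split between them, so their separate levels are uncertain, and the counting of multi-mapped reads is not described in the labels.

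**Figure D2:**
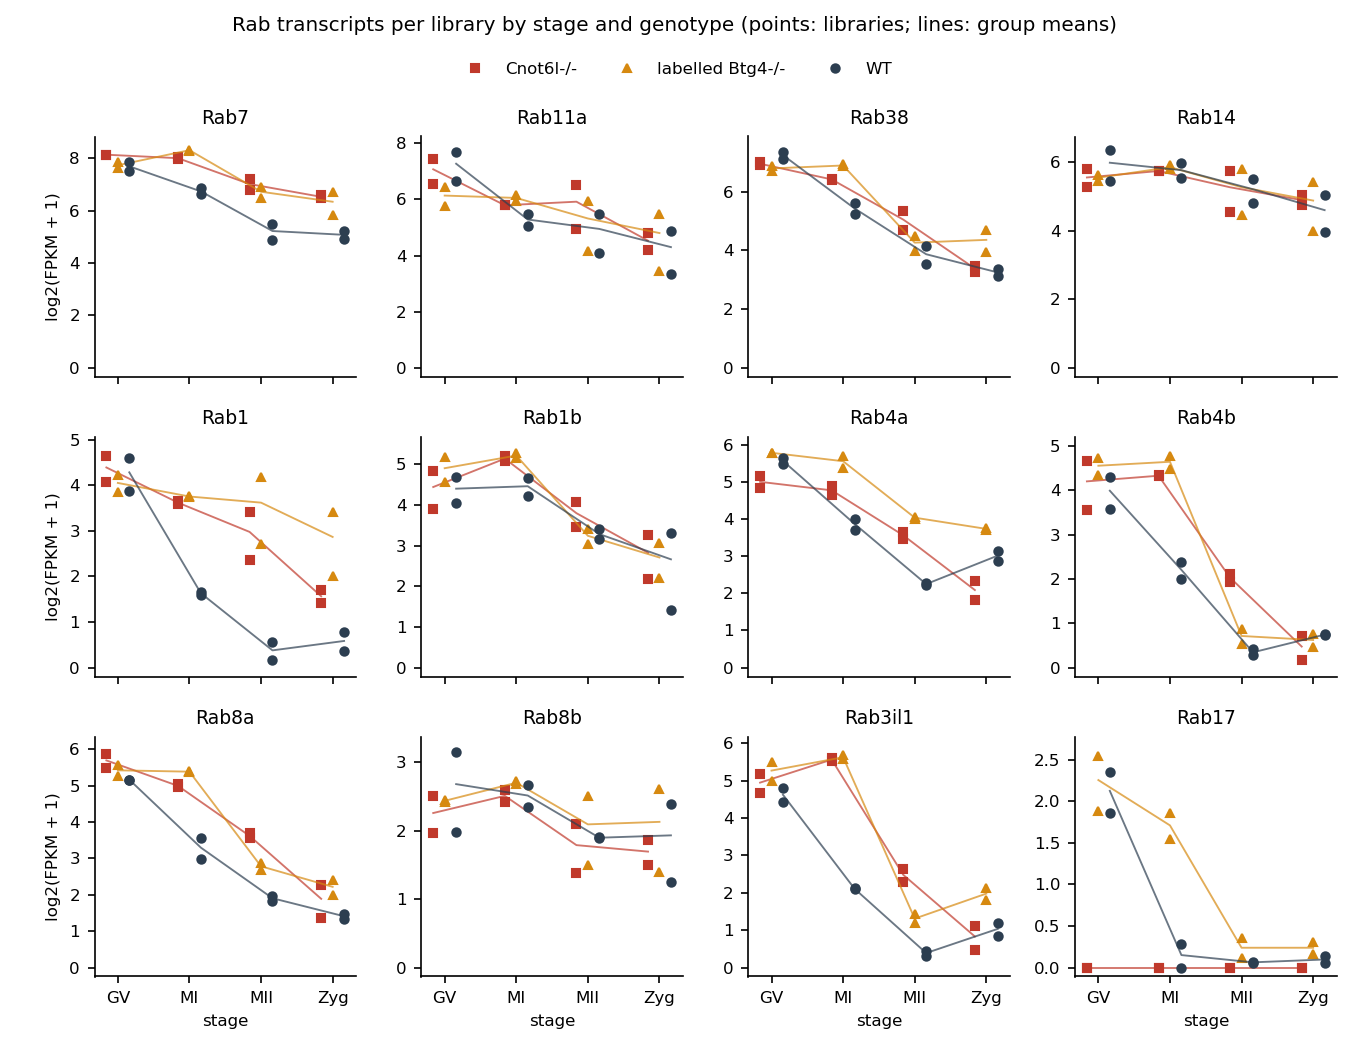
Level of 12 Rab genes as log2(FPKM + 1) at GV, MI, MII and zygote; points are libraries (squares Cnot6l-/-, triangles labelled Btg4-/-, circles WT) and lines join group means. At MI, Rab1, Rab4b and Rab3il1 are lower in both WT libraries than in all others, Rab14 overlaps between genotypes at every stage, and Rab17 is at 0 in each Cnot6l-/- library.

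Of the other ER and Golgi Rabs, as deposited, 1 passed a test against WT, Rab2b. Rab6a, which drives retrograde transport within the Golgi, was at 32.7 and 13.6 FPKM at GV, 22.7 and 15.9 FPKM at MI, 13.96 and 12.3 FPKM at MII and 13.4 and 6.05 FPKM in zygotes in WT libraries. Rab2a, of the ER-Golgi intermediate, was at 51.0 and 29.97 FPKM at GV, 12.3 and 10.2 FPKM at MI, 13.1 and 7.49 FPKM at MII and 12.01 and 3.28 FPKM in zygotes in WT. Rab18, of lipid droplets and the ER, was at 41.0 and 23.7 FPKM at GV, 13.5 and 10.2 FPKM at MI, 14.4 and 6.50 FPKM at MII and 10.4 and 4.17 FPKM in zygotes in WT. For all 3, the first value given was the higher one of each WT pair. Rab6a passed in neither WT comparison with GV as deposited and was called higher in both after scaling (log2 differences of 1.04 at MI and 1.17 at MII). Rab2a in MII eggs was at 25.8 and 13.2 FPKM in Cnot6l-/-, 26.4 and 12.2 FPKM in the group labelled Btg4-/- and 13.1 and 7.49 in WT. Rab18 in MII eggs was at 26.6 and 10.9 FPKM in Cnot6l-/-, 26.2 and 8.59 FPKM in the group labelled Btg4-/- and 14.4 and 6.50 FPKM in WT. At MII library 1 was the higher one of each pair for Rab2a and Rab18. For Rab2a both Cnot6l-/- libraries were just above WT, and the other MII groups overlap. Rab6a, Rab2a and Rab18 were called against WT at no stage, as deposited or after scaling. Rab2b, the second Rab2, stayed under 2.5 FPKM in every library and was at 0.61 and 0.69 FPKM in Cnot6l-/- and 1.67 and 1.23 in WT at MI, the gene called lower there, with a log2 difference of -0.56 ± 0.22 (SE; adjusted p = 0.037). Without any 1 of the 4 Cnot6l-/- and WT MI libraries, no Rab gene was called lower there, and neither with no filter nor with a pseudocount of 0.1, so the Rab2b call was lost in each of these fits. Rab2b lies under the level for named genes and was named because it was the single one. After scaling Rab2b was also called lower than WT in Cnot6l-/- at MII (-0.73) and in zygotes (-0.78), and in the group labelled Btg4-/- at MI, MII and zygote (-0.49, -0.50 and -0.61, where the MI value as deposited was 0.20).

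The recycling Rab4a (chr8:126329896-126359191, plus strand), of fast return from early endosomes to the plasma membrane, was above WT in both other groups at MI and MII but below WT in Cnot6l-/- zygotes. Rab4a in Cnot6l-/- libraries was at 27.4 and 34.6 FPKM at GV, 28.7 and 23.9 FPKM at MI, 10.1 and 11.5 FPKM at MII and 2.51 and 4.0 FPKM in zygotes. Rab4a in the group labelled Btg4-/- was at 53.9 and 54.0 FPKM at GV, 40.8 and 51.2 FPKM at MI, 15.1 and 15.7 FPKM at MII and 12.6 and 11.97 FPKM in zygotes. Rab4a in WT libraries was at 43.6 and 49.1 FPKM at GV, 14.99 and 12.1 FPKM at MI, 3.69 and 3.82 FPKM at MII and 6.31 and 7.86 FPKM in zygotes. No groups overlapped with WT at any stage. At GV the Cnot6l-/- libraries were below WT, as in zygotes, and the others above it. At MII Rab4a was higher by 1.78 ± 0.24 (SE; adjusted p = 2.9e-05) on the log2 scale in the group labelled Btg4-/- and by 1.31 ± 0.24 (SE; adjusted p = 0.00026) in Cnot6l-/-. After scaling the MII call held in the group labelled Btg4-/- (1.20) and not in Cnot6l-/- (0.62), and neither MI call held (0.01 in Cnot6l-/-, 0.51 in the group labelled Btg4-/-). In Cnot6l-/- zygotes it was lower, with a log2 difference of -0.94 ± 0.24 (SE; adjusted p = 0.018). The zygote call was lost without Cnot6l-/- library 1 (-0.69) or WT library 2 (-0.80), and scaling gave -1.65. Its paralog Rab4b was at 18.9 and 19.3 FPKM in Cnot6l-/-, 21.4 and 26.5 FPKM in the group labelled Btg4-/- and 4.22 and 3.01 in WT at MI. Rab4b in MII eggs was at 2.81 and 3.35 FPKM in Cnot6l-/-, 0.44 and 0.84 FPKM in the group labelled Btg4-/- and 0.21 and 0.33 FPKM in WT, so all libraries of both groups were above WT. The log2 difference from WT at MI was 2.14 ± 0.32 (SE; adjusted p = 2.1e-05) in Cnot6l-/- and 2.44 ± 0.32 (SE; adjusted p = 4.4e-06) in the group labelled Btg4-/-, and WT MII eggs kept 1.82% of the GV level of Rab4b, a log2 difference of -3.60 ± 0.32 (SE; adjusted p = 2.1e-08).

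Rab11a and Rab14 were called against WT at no stage as deposited. Rab11a in Cnot6l-/- libraries was at 175 and 93.2 FPKM at GV, 54.8 and 54.3 FPKM at MI, 89.5 and 29.8 FPKM at MII and 26.7 and 17.5 FPKM in zygotes. Rab11a in the group labelled Btg4-/- was at 53.2 and 85.8 FPKM at GV, 60.9 and 70.0 FPKM at MI, 61.1 and 17.0 FPKM at MII and 43.9 and 9.93 FPKM in zygotes. Rab11a in WT libraries was at 209 and 99.1 FPKM at GV, 43.9 and 32.1 FPKM at MI, 43.9 and 15.9 FPKM at MII and 28.3 and 9.12 FPKM in zygotes. In MII eggs library 1 was well above library 2 in each genotype and the groups overlapped, while at MI both other groups were above WT. The WT log2 difference from GV was -1.91 ± 0.74 (SE; adjusted p = 0.031) at MI and -2.40 ± 0.74 (SE; adjusted p = 0.007) at MII, and neither passed after scaling. Rab14, of traffic between the Golgi and endosomes, was at 54.5 and 37.8 FPKM at GV, 52.8 and 52.6 FPKM at MI, 52.5 and 22.6 FPKM at MII and 31.8 and 25.8 FPKM in zygotes in Cnot6l-/-. Rab14 in the group labelled Btg4-/- was at 48.9 and 42.9 FPKM at GV, 54.8 and 59.1 FPKM at MI, 54.5 and 20.9 FPKM at MII and 42.0 and 15.1 FPKM in zygotes. Rab14 in WT libraries was at 82.0 and 43.0 FPKM at GV, 61.7 and 45.5 FPKM at MI, 44.8 and 27.3 FPKM at MII and 32.0 and 14.6 FPKM in zygotes. Its genotypes overlapped at every stage. After scaling Rab14 was higher in WT at MI and MII than at GV (1.07 and 1.15), and lower than WT at MI in Cnot6l-/- (-0.93) and the group labelled Btg4-/- (-1.09). WT MII eggs kept 57.7% of the GV level, the highest share of the 22 Rab genes with at least 10 FPKM in WT GV oocytes. Rab11b stayed under 3.5 FPKM in every library, and Rab25, the epithelial member of the Rab11 family, is described with the GV comparison.

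Rab8a (chr8:74685099-74705265, plus strand), of polarised exocytosis and cilium formation, was higher than WT in both groups at MI and MII. Rab8a in Cnot6l-/- libraries was at 43.8 and 57.9 FPKM at GV, 30.04 and 31.8 FPKM at MI, 10.8 and 11.9 FPKM at MII and 1.59 and 3.83 FPKM in zygotes. Rab8a in the group labelled Btg4-/- was at 37.7 and 46.1 FPKM at GV, 40.3 and 41.2 FPKM at MI, 6.40 and 5.39 FPKM at MII and 4.34 and 2.98 FPKM in zygotes. Rab8a in WT libraries was at 35.0 and 34.9 FPKM at GV, 10.8 and 6.85 FPKM at MI, 2.93 and 2.57 FPKM at MII and 1.54 and 1.78 FPKM in zygotes. At GV, MI and MII both groups were above WT without overlap, and the log2 difference at MII was 1.72 ± 0.28 (SE; adjusted p = 0.00012) for Cnot6l-/-. The MII call in the group labelled Btg4-/- did not hold after scaling (0.32). Rab8b, at 1.38 to 7.90 FPKM over all libraries, overlapped between genotypes except at MI in the group labelled Btg4-/- and was called in no comparison as deposited; after scaling it was higher in WT at MI and MII than at GV (0.94 and 0.85). Rab10, of GLUT4 and basolateral traffic, was at 15.1 and 9.04 FPKM in Cnot6l-/-, 17.2 and 9.03 FPKM in the group labelled Btg4-/- and 11.6 and 10.2 in WT at MII. Rab35, which links endosomal recycling to actin, had 16.9 and 17.6 FPKM in Cnot6l-/-, 21.5 and 19.7 FPKM in the group labelled Btg4-/- and 6.29 and 4.92 FPKM in WT at MI. For Rab10 the groups overlap, and for Rab35 they are apart.

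**Figure D3:**
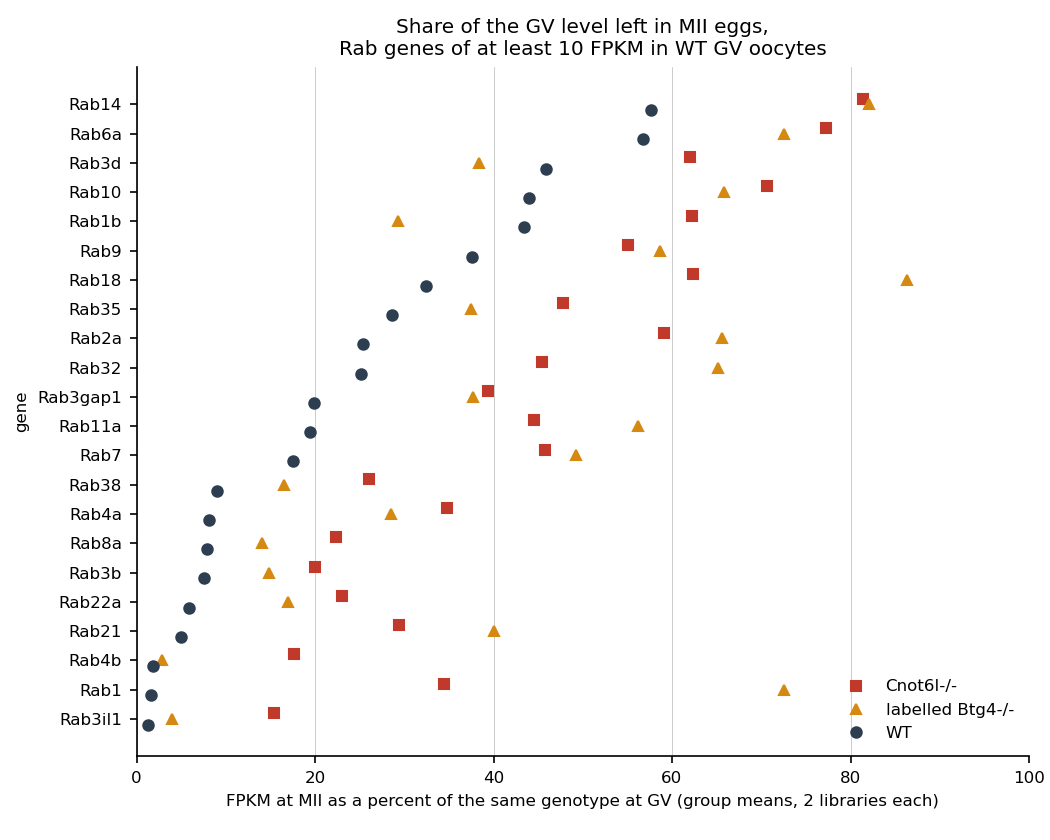
FPKM in MII eggs as a percent of GV oocytes of the same genotype (group means of 2 libraries) for the 22 Rab genes with at least 10 FPKM in WT GV oocytes, sorted by WT; squares are Cnot6l-/-, triangles labelled Btg4-/- and circles WT. WT runs between 1.31% for Rab3il1 and 57.7% for Rab14, and Cnot6l-/- is to the right of WT in each row.

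Of the late endosomal Rabs, Rab7 had the highest mean FPKM over all libraries of the Rab genes and was higher in both other groups than in WT at each stage after GV. Rab7 in Cnot6l-/- libraries was at 283 and 282 FPKM at GV, 265 and 249 FPKM at MI, 149 and 109.9 FPKM at MII and 87.7 and 95.5 FPKM in zygotes. Rab7 in the group labelled Btg4-/- was at 229.5 and 197 FPKM at GV, 315 and 320.4 FPKM at MI, 120.5 and 89.6 FPKM at MII and 104 and 56.7 FPKM in zygotes. Rab7 in WT libraries was at 185 and 229.9 FPKM at GV, 115 and 97.6 FPKM at MI, 44.4 and 28.4 FPKM at MII and 28.9 and 36.6 FPKM in zygotes. All libraries of both other genotypes were above WT at MI, MII and zygote. The Cnot6l-/- libraries were also above WT at GV, where Rab7 was not called. The log2 difference at MII was 1.82 ± 0.31 (SE; adjusted p = 0.00016) in Cnot6l-/- and 1.52 ± 0.31 (SE; adjusted p = 0.0013) in the group labelled Btg4-/-. In zygotes it was 1.46 ± 0.31 (SE; adjusted p = 0.0063) in Cnot6l-/- and 1.21 ± 0.31 (SE; adjusted p = 0.0093) in the group labelled Btg4-/-. After scaling the MII calls held, and those of Cnot6l-/- and the group labelled Btg4-/- at MI (0.33 and 0.36) and in zygotes (0.82 and 0.33) did not. The Cnot6l-/- zygote call was also lost without Cnot6l-/- library 2 (1.40), and that of the group labelled Btg4-/- without its library 1 (0.78) or WT library 1 (1.05). Rab9, which returns mannose 6-phosphate receptors to the Golgi, was at 9.51 and 15.7 FPKM in Cnot6l-/-, 18.8 and 9.74 FPKM in the group labelled Btg4-/- and 5.37 and 4.98 in WT zygotes. Its log2 difference in the group labelled Btg4-/- was 1.24 ± 0.38 (SE; adjusted p = 0.027). The call was lost after scaling (0.46), and without library 1 of that group (0.80) or either WT zygote library (1.29 and 1.20). Rab33b and Rab12, linked to autophagy and to receptor degradation, stayed between 1.25 and 13.2 FPKM and between 2.0 and 8.51 FPKM.

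Early endosomal Rabs, the group of Rab5 and its relatives, fell in WT, with 7 of 7 tested genes called lower at MI and 7 of 7 at MII, where 65.1% and 83.4% of all genes tested were. The median log2 difference was -1.90 and -2.04, and after scaling 4 and 5 of the 7 were called lower (30.5% and 43.2% of all genes). Rab21 (chr10:114726918-114752647, minus strand), of endosomal sorting and integrin traffic, was at 34.1 and 24.2 FPKM at GV, 11.6 and 14.1 FPKM at MI, 11.3 and 5.83 FPKM at MII and 7.02 and 6.51 FPKM in zygotes in Cnot6l-/-. Rab21 in the group labelled Btg4-/- was at 33.2 and 37.5 FPKM at GV, 18.1 and 21.1 FPKM at MI, 20.0 and 8.33 FPKM at MII and 26.9 and 9.85 FPKM in zygotes. Rab21 in WT libraries was at 70.4 and 16.4 FPKM at GV, 2.78 and 2.49 FPKM at MI, 2.26 and 2.09 FPKM at MII and 11.5 and 1.63 FPKM in zygotes. WT libraries of GV oocytes and of zygotes differed several fold from each other, while at MI and MII both WT libraries were under 3 FPKM. In WT the log2 difference from GV was -3.28 ± 0.66 (SE; adjusted p = 0.00036) at MI and -3.47 ± 0.66 (SE; adjusted p = 0.00014) at MII. At MI Rab21 was higher by 2.50 ± 0.66 (SE; adjusted p = 0.003) in the group labelled Btg4-/-, and at MII by 2.14 ± 0.66 (SE; adjusted p = 0.021). The MII call was lost without library 1 of that group (1.56), WT library 1 (2.18) or WT library 2 (2.1). Rab22a, of endosomal recycling, was at 6.49 and 5.86 FPKM in Cnot6l-/-, 6.14 and 5.18 FPKM in the group labelled Btg4-/- and 1.92 and 1.5 in WT at MII. In zygotes it was at 9.92 and 7.89 FPKM in the group labelled Btg4-/- and 3.48 and 2.52 in WT, a log2 difference of 1.31 ± 0.27 (SE; adjusted p = 0.0021) that missed the threshold after scaling (0.62). The 3 Rab5 genes were at 8.52 FPKM or less in every library.

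Of the Rabs of regulated secretion, Rab3d was called higher in Cnot6l-/- at MI, MII and zygote. Rab3d (chr9:21711955-21722565, minus strand), of secretory granules, was at 19.6 and 24.6 FPKM at GV, 38.9 and 43.9 FPKM at MI, 14.9 and 12.5 FPKM at MII and 7.30 and 12.02 FPKM in zygotes in Cnot6l-/-. Rab3d in the group labelled Btg4-/- was at 19.1 and 13.2 FPKM at GV, 17.6 and 16.1 FPKM at MI, 6.97 and 5.44 FPKM at MII and 3.02 and 3.22 FPKM in zygotes. Rab3d in WT libraries was at 15.4 and 13.4 FPKM at GV, 19.2 and 14.8 FPKM at MI, 6.27 and 6.96 FPKM at MII and 1.57 and 2.64 FPKM in zygotes. At every stage both Cnot6l-/- libraries lay above all libraries of the other 2 groups. In Cnot6l-/- zygotes the log2 difference from WT was 1.77 ± 0.27 (SE; adjusted p = 0.00055), and it was called higher after scaling too (1.37). The calls at MI and MII did not hold after scaling (0.33 and 0.20), and the group labelled Btg4-/- was called at no stage as deposited and lower at MI after scaling (-1.14). The difference between these 2 groups was not tested. Rab3d fell in WT zygotes against WT MII eggs, with a log2 difference of -1.31 ± 0.27 (SE; adjusted p = 0.009), which was not called without WT MII library 2 (-1.25) or WT zygote library 1 (-1.06). Rab3b was at 11.6 and 11.3 FPKM in Cnot6l-/-, 8.47 and 8.10 FPKM in the group labelled Btg4-/- and 1.34 and 1.06 in WT at MI, and the log2 difference was 2.51 ± 0.43 (SE; adjusted p = 8.8e-05) in Cnot6l-/-. In WT the log2 difference of Rab3b between MI and GV was -2.61 ± 0.43 (SE; adjusted p = 5.8e-05). Rab3a, the Rab3 of synaptic vesicles, was at 7.97 and 8.52 FPKM in Cnot6l-/-, 9.90 and 13.3 FPKM in the group labelled Btg4-/- and 1.75 and 1.89 FPKM in WT at MI. Rab27a, of secretory lysosomes, was at 2.87 and 1.97 FPKM in Cnot6l-/-, 5.48 and 2.72 FPKM in the group labelled Btg4-/- and 0.57 and 0.48 FPKM in WT at MII. For Rab3a and Rab27a both other groups were above WT at these stages.

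Of the Rabs of lysosome-related organelles, Rab38 was at 128 and 119 FPKM at GV, 84.4 and 84.9 FPKM at MI, 39.6 and 24.6 FPKM at MII and 8.66 and 10.2 FPKM in zygotes in Cnot6l-/-. Rab38 in the group labelled Btg4-/- was at 103 and 118 FPKM at GV, 116 and 121 FPKM at MI, 21.5 and 14.9 FPKM at MII and 24.8 and 14.3 FPKM in zygotes. Rab38 in WT libraries was at 164 and 138 FPKM at GV, 47.7 and 36.5 FPKM at MI, 16.6 and 10.6 FPKM at MII and 9.20 and 7.79 FPKM in zygotes. At MII the Cnot6l-/- libraries were above WT and the group labelled Btg4-/- overlapped with it. WT MII eggs kept 9.02% of the WT GV level, Cnot6l-/- eggs 26.0% of theirs and eggs labelled Btg4-/- 16.5%. Rab32, its close relative, was at 16.0 and 8.59 FPKM in Cnot6l-/-, 14.1 and 7.74 FPKM in the group labelled Btg4-/- and 4.29 and 3.06 in WT at MII. Its log2 difference at MII was 1.46 ± 0.36 (SE; adjusted p = 0.0035) in Cnot6l-/-, a call that was lost without Cnot6l-/- library 1 (1.05). Of the regulators, Rab3gap1, the catalytic subunit of the Rab3 GAP, was at 18.4 and 23.1 FPKM in Cnot6l-/-, 24.6 and 24.3 FPKM in the group labelled Btg4-/- and 10.3 and 7.21 FPKM in WT at MI, with both other groups above WT. The 5 Rab11 effectors Rab11fip1 to Rab11fip5 summed to 7.58 FPKM or less in every library.

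At GV few Rab genes were called against WT in either group. In Cnot6l-/- oocytes 1 of 46 was called higher and 1 lower, where 6.06% and 3.02% of all genes tested were, and in the group labelled Btg4-/- 1 was higher (6.1% of all genes were higher and 1.33% lower). After scaling 2 were higher and 1 lower in Cnot6l-/- (5.49% and 2.07% of all genes), and 0 were called in the other group (1.03% and 0.743%; 4 Rab genes at an unadjusted p under 0.05). The gene called higher as deposited was Rab25 (chr3:88345951-88352201, minus strand) in both comparisons, which share the WT libraries. Rab25 in GV oocytes was at 10.8 and 11.1 FPKM in Cnot6l-/-, 9.31 and 10.5 FPKM in the group labelled Btg4-/- and 5.76 and 4.70 in WT. The log2 difference was 0.94 ± 0.16 (SE; adjusted p = 0.00083) in Cnot6l-/- and 0.81 ± 0.16 (SE; adjusted p = 0.0065) in the group labelled Btg4-/-. In both comparisons Rab25 was not called with a pseudocount of 0.1 or in a fit of only the libraries compared. For the group labelled Btg4-/- it did not pass after scaling (0.69) or without WT GV library 2 (0.69). Over all Rab genes tested, the median log2 difference of that group from WT was 0.12 with all libraries, beside 0.14 over all genes. Without single libraries it ranged between -0.07 and 0.34 for the Rab genes and between 0.0 and 0.28 over all genes. At MI Rab25 was at 4.42 and 5.12 FPKM in Cnot6l-/-, 7.47 and 7.27 FPKM in the group labelled Btg4-/- and 0.04 and 0.33 FPKM in WT, and it was higher by 2.83 ± 0.16 (SE; adjusted p = 2.3e-09) in the group labelled Btg4-/-. The gene called lower was Rab17 (chr1:92854710-92866197, minus strand), known from epithelial transcytosis, which lies under the level for named genes and was named after its values were seen. Rab17 was at 0 and 0 FPKM in Cnot6l-/-, 2.70 and 4.83 FPKM in the group labelled Btg4-/- and 2.62 and 4.10 in WT at GV, and it was listed at 0 in each of the 8 Cnot6l-/- libraries. The fitted log2 difference of -2.10 ± 0.19 (SE; adjusted p = 8.9e-07) depends on the pseudocount.

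At MI most Rab genes were higher in both groups than in WT, as most other genes were. In Cnot6l-/- oocytes 30 of 46 were called higher and 1, Rab2b, lower (0 lower without any 1 of the 4 libraries), where 60.3% of all genes tested were higher and 1.3% lower. In the group labelled Btg4-/- 30 were called, each higher (68.7% of all genes were higher and 0.432% lower). The median log2 difference of the Rab genes in Cnot6l-/- was 0.90, beside 0.87 over all genes tested (0.28 after scaling). For the group labelled Btg4-/- the Rab median was 1.07, beside 0.99 over all genes tested (0.22 after scaling). After scaling both groups had 15 higher and 3 lower of 43, where 35.8% and 11.0% of all genes were in Cnot6l-/-, and 32.5% and 9.82% in the group labelled Btg4-/-. The 15 higher in each were also called higher as deposited. Summed over all Rab genes, Cnot6l-/- MI oocytes had 83.0% of their GV sum, the group labelled Btg4-/- 108% and WT 38.8%. For all genes the shares were 62.5%, 78.0% and 32.0%.

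**Figure D4:**
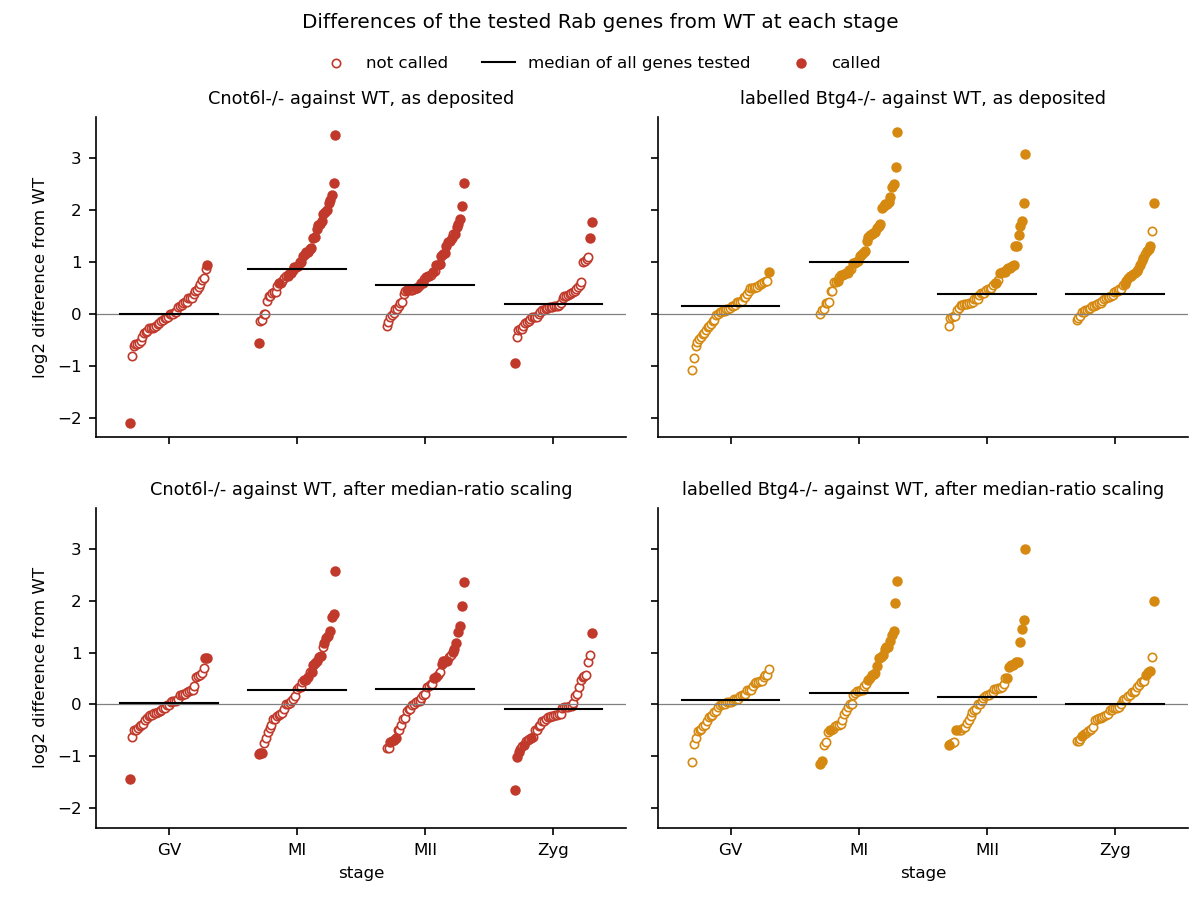
Log2 difference from WT of each tested Rab gene at 4 stages, in Cnot6l-/- (left) and the group labelled Btg4-/- (right), as deposited (top, 46 genes) and after median-ratio scaling (bottom, 43 genes); filled points were called and black bars are the median of all genes tested. As deposited, the filled points at MI and MII lie above 0 except Rab2b in Cnot6l-/- at MI, and after scaling filled points lie on both sides. Colour marks the group (red Cnot6l-/-, orange labelled Btg4-/-).

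At MII fewer Rab genes were called in either group. In Cnot6l-/- eggs 22 of 46 were called, each higher (44.3% of all genes higher, 0.671% lower), and in the group labelled Btg4-/- 15, each higher (28.3% and 0.34%). After scaling the counts were 13 higher and 3 lower in Cnot6l-/- (34.3% and 8.69% of all genes) and 10 higher and 2 lower in the group labelled Btg4-/- (21.8% and 6.55%). In Cnot6l-/- the median log2 difference was 0.68 for the Rab genes and 0.56 over all genes tested. The 2 medians were 0.51 and 0.46 without Cnot6l-/- MII library 1, and 0.69 and 0.7 without library 2. Without WT MII library 1 they were 0.77 and 0.59, and without WT MII library 2 0.51 and 0.56. For the group labelled Btg4-/-, fewer Rab genes and fewer of all genes were called without its library 1 or either WT MII library. The Rab and all-gene medians were 0.26 and 0.25 without its library 1. They were 0.54 and 0.4 without WT MII library 1, and 0.43 and 0.39 without WT MII library 2. With all libraries they were 0.47 and 0.38. In MII eggs library 1 was above library 2 in 34 of 46 Rab genes in Cnot6l-/-, 37 in the group labelled Btg4-/- and 33 in WT. Over all genes tested, library 1 was above library 2 in 66.0% in Cnot6l-/-, 73.1% in the group labelled Btg4-/- and 52.6% in WT. The part of this order in the calls was not tested beyond leaving libraries out.

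In zygotes the median log2 difference of the Rab genes from WT was 0.14 for Cnot6l-/-, beside 0.18 over all genes tested. It was 0.43 for the group labelled Btg4-/-, beside 0.38 over all genes tested. Against WT, 2 genes were higher and 1 lower in Cnot6l-/- zygotes (8.0% of all genes higher, 0.413% lower), and 10, each higher, in the group labelled Btg4-/- (21.5% and 0.0459%). The 3 of Cnot6l-/- were Rab3d, Rab7 and, lower, Rab4a. Scaling turned the split in Cnot6l-/- to 1 higher and 5 lower (8.0% and 7.91% of all genes) and left 3 higher and 1 lower in the group labelled Btg4-/- (11.7% and 3.04%). For the group labelled Btg4-/-, fewer Rab genes and fewer of all genes were called without its library 1 or either WT zygote library. The Rab and all-gene medians were 0.29 and 0.23 without its library 1. They were 0.66 and 0.5 without WT zygote library 1, and 0.21 and 0.28 without WT zygote library 2. Zygotes had 24.9% of the summed Rab FPKM of GV oocytes in Cnot6l-/-, 33.1% in the group labelled Btg4-/- and 15.9% in WT, where all genes had 22.6%, 30.2% and 12.7%.

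The change between GV and MII was compared directly between genotypes by an interaction term. In 13 of 46 Rab genes the log2 change from GV to MII was higher, that is less negative, in Cnot6l-/- than in WT. The median difference was 0.70 over the Rab genes, beside 0.56 over all genes tested (0.24 and 0.18 after scaling). One of the 13 is Rab17, listed at 0 in Cnot6l-/- at both stages, so its term restates the WT fall alone. Of all genes tested 24.1% had a higher change and 0.717% a lower one. The largest among genes of at least 5 FPKM were Rab1 at 2.39 ± 0.67 (SE; adjusted p = 0.014), Rab4a at 1.88 ± 0.33 (SE; adjusted p = 0.0006), Rab3il1 at 1.77 ± 0.38 (SE; adjusted p = 0.0026) and Rab4b at 1.52 ± 0.45 (SE; adjusted p = 0.021). In the group labelled Btg4-/- 4 genes passed, with 13.3% of all genes higher and 0.579% lower. They were Rab1 at 3.27 ± 0.67 (SE; adjusted p = 0.0034), Rab27a at 2.01 ± 0.42 (SE; adjusted p = 0.0036), Rab4a at 1.57 ± 0.33 (SE; adjusted p = 0.0045) and Rab7 at 1.48 ± 0.44 (SE; adjusted p = 0.032). After scaling 4 genes passed in Cnot6l-/-, and 2 passed in the group labelled Btg4-/-, of 43 each (15.0% and 12.4% of all genes had a higher change, 0.733% and 2.38% a lower one), with Rab1 and Rab27a among them in both. Rab4a, Rab3il1 and Rab4b in Cnot6l-/-, and Rab4a and Rab7 in the group labelled Btg4-/-, no longer passed. With single libraries left out, the deposited Rab median in Cnot6l-/- ranged between 0.5 and 0.93, and that over all genes tested between 0.39 and 0.78. Single libraries also decided the calls of Rab1 in Cnot6l-/- (1.87 to 2.2 without Cnot6l-/- GV library 2, Cnot6l-/- MII library 1, WT GV library 1 or WT MII library 2), of Rab4b (0.97 to 1.46 without Cnot6l-/- GV library 1, Cnot6l-/- MII library 2, WT GV library 2 or WT MII library 1) and of Rab7 in the group labelled Btg4-/- (1.16 to 1.63 without any of 6 libraries, both of the GV and the first of the MII eggs in its own group, and both of the GV and the second of the MII eggs in WT).

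Genes that act on Rab proteins were examined as 4 lists. Of all genes tested, 60.3% were higher than WT at MI in Cnot6l-/- and 68.7% in the other group, 44.3% and 28.3% at MII, and 83.4% were lower in WT at MII than at GV. Of 12 listed genes for prenylation, GDP dissociation inhibitors and escort proteins, 9 were tested, and at MI 8 were higher than in WT for Cnot6l-/- and 9 for the group labelled Btg4-/-. Between MII and GV in WT, 9 of 9 were lower, with a median log2 difference of -2.06 against -1.37 over all genes tested. After scaling 4 and 5 of the 9 were higher at MI, where 35.8% and 32.5% of all genes were. At MII in WT 4 were then lower, where 43.2% of all genes were. Of the Rab GEFs 29 were tested, and 18 (Cnot6l-/-) and 20 (labelled Btg4-/-) were higher at MI, with 22 lower at MII in WT. Among 25 tested GAPs the counts were 15, 16 and 20, and among 29 tested effectors 20, 20 and 25. At MII, 9 GEFs, 8 GAPs and 11 effectors were higher in Cnot6l-/-, and 9, 5 and 8 in the group labelled Btg4-/-. After scaling the MI counts of higher and lower genes in Cnot6l-/- were 8 and 3 of 27 GEFs, 7 and 3 of 22 GAPs and 10 and 5 of 29 effectors. Of all genes, 35.8% were higher and 11.0% lower in Cnot6l-/- at MI after scaling. The group labelled Btg4-/- had 10 and 3, 6 and 4, and 9 and 5 at that stage, where 32.5% and 9.82% of all genes were. Between MII and GV in WT, 7 GEFs were higher and 9 lower after scaling, 5 and 8 GAPs, and 6 and 10 effectors, where 14.9% and 43.2% of all genes were.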

How the data were processed

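The deposited values are FPKM of the authors for 23235 genes in 24 libraries, made with Smart-Seq2 and Tn5 per the labels' protocols. The submitters' processing notes name the build mm9 and CASAVA 1.8, TopHat2 2.0.11, Bowtie2 2.1.0 and Cufflinks 2.2.1. Whether they were scaled between libraries is not stated in the labels. Depth is unknown, and with 2 libraries a group the spread between them sets the precision. The MI columns are numbered 2 and 3 but their titles 1 and 2, so they were assigned to groups only. Single-library tables, which partly repeat this table, were not used. No 2 libraries held identical values.

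From these values, log2(FPKM + 1) was fitted with limma 3.58.1 (R 4.3.3; eBayes with trend), using 12 group means and 12 residual degrees of freedom, over the 10884 genes whose mean reached 1 FPKM in any group. All 13 contrasts were two-sided with Benjamini-Hochberg adjustment over all genes tested, and genes under 0.05 were called. Log2 differences are on the log2(FPKM + 1) scale, which understates changes of low genes. The fit was tested on simulated data with 200 genes changed. The fit was repeated with median-ratio scaling (9823 genes tested), without the filter, with a pseudocount of 0.1, with only the libraries compared, with a replicate block and without each library in turn. A library left alone in its group is assumed to vary like the others.

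Genes with values by rule were, per contrast, up to 4 called members with the highest and 4 with the lowest change, of at least 5 FPKM in the higher group. Values per library are given for members with a mean of at least 10 FPKM and their paralogs. Members and lists were chosen with earlier results of these data known. Starts of genes are counted from 1. Python 3.11.15 with pandas 2.3.3, numpy 2.4.6 and matplotlib 3.10.9 was used. Of the Rab symbols, 66 matched a gencode vM1 transcript with a 3′ UTR of at least 100 bases, Rab6a through a RefSeq synonym.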

Additional observations from a re-analysis of the deposited data

Results flagged for a closer look

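The change between GV and MII differed from WT in the same direction, smaller falls, in each of the genes below, by the interaction test over all genes (limma, adjusted p under 0.05). In Cnot6l-/- the log2 difference of the changes was 2.39 for Rab1, 1.88 for Rab4a, 1.77 for Rab3il1, 1.52 for Rab4b, 1.50 for Rab22a, 1.46 for Rab38, 1.37 for Rab7, 1.35 for Rab27a, 1.30 for Rab3ip, 1.20 for Rab8a, 0.92 for Rab5c and 0.86 for Rab11fip5. For Rab17 it was 2.04, and Rab17 was listed at 0 in the Cnot6l-/- libraries at both stages. In the group labelled Btg4-/- the difference was 3.27 for Rab1, 2.01 for Rab27a, 1.57 for Rab4a and 1.48 for Rab7. Both sets use the same WT libraries.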

How the results depend on the processing

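The 42 log2 differences given for genes named by the rule on fold changes kept their direction under every alternative run, in 410 comparisons with an alternative, and 55 of these lost the call. Rab2b, Rab7l1, Rab10, Rab11a, Rab14 and Rab17 are outside this count, and 4 genes called lower in WT MII eggs as deposited (Rab10, Rab2b, Rab3d and Rab7l1) were called higher after scaling. The 42 were picked as the largest called changes in these same libraries, so a kept direction was close to fixed in advance. Median-ratio scaling moved most counts of called Rab genes. In WT it gave 19 at MI and 27 at MII against GV, and 12 for zygotes against MII, now mostly higher. Against WT it gave 18 in Cnot6l-/- at MI and 6 in zygotes, now mostly lower, and 0 (4 at an unadjusted p under 0.05), 18 and 4 in the group labelled Btg4-/- at GV, MI and zygote. For the change between GV and MII it gave 4 (Cnot6l-/-) and 2 (labelled Btg4-/-). The shares of all genes called after scaling are given with each comparison above. A shift of all libraries is built into this alternative. Fits of only the libraries compared have fewer degrees of freedom. They gave 0 for WT zygotes (4 unadjusted), 1 for Cnot6l-/- at GV and 1 in zygotes, 0 for the group labelled Btg4-/- at GV (2 unadjusted) and 0 in zygotes (4 unadjusted), and 7 for the change in Cnot6l-/-. Of all genes in these fits, 0.107% were higher and 0.693% lower for WT zygotes. For Cnot6l-/- the shares were 2.5% and 1.46% at GV, 6.49% and 0.667% in zygotes, and 19.8% and 0.392% for the change. For the group labelled Btg4-/- they were 1.48% and 0.915% at GV and 2.03% and 0.015% in zygotes. The calls lost there were Rab3d (WT zygotes), Rab25 (GV, both groups), Rab7 and Rab4a (Cnot6l-/- zygotes), Rab1, Rab22a, Rab9 and Rab7 (zygotes labelled Btg4-/-), and for the change Rab4b (Cnot6l-/-) and Rab7 (labelled Btg4-/-). A pseudocount of 0.1 gave 6, with 3 higher and 3 lower, for WT zygotes, 1 and 5 for Cnot6l-/- at GV and in zygotes, and 0 for the group labelled Btg4-/- at GV (4 unadjusted). Of all genes, 4.66% were then higher and 6.61% lower for WT zygotes. The shares were 3.25% and 1.98% for Cnot6l-/- at GV, 13.6% and 1.34% in its zygotes, and 1.08% and 0.597% for the group labelled Btg4-/- at GV. No filter gave 2 there (6.04% of all genes higher and 1.71% lower), and lost the calls of Rab21 (MII) and Rab9 (zygotes) in that group. The cause of the shifts with the pseudocount and the filter was not tested.

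Leaving out 1 library at a time, counts ranged between 23 and 37 (WT MI), 33 and 44 (WT MII) and 0 and 4 (WT zygotes). For Cnot6l-/- they ranged between 2 and 3 at GV, 25 and 29 at MI, 11 and 19 at MII, 2 and 3 in zygotes, and 7 and 14 for the change. For the group labelled Btg4-/- they ranged between 0 and 4, 27 and 30, 6 and 14, 3 and 10, and 3 and 5. The share of all genes called also changed with the library left out, so these ranges do not set the Rab genes apart. In WT at MI the median log2 difference from GV then ranged between -1.38 and -0.93 for the Rab genes. Over all genes it ranged between -1.13 and -0.8. At MII in the group labelled Btg4-/- the ranges were 0.26 to 0.69 and 0.25 to 0.54, in the same order. In its zygotes they were 0.21 to 0.66 and 0.23 to 0.56. With the replicate block, 4 Rab genes were called in Cnot6l-/- at GV (7.44% of all genes higher and 3.77% lower). In zygotes labelled Btg4-/- 17 were called (27.6% and 0.0735%). The other counts of called Rab genes stayed within 1.5 times those without the block. Same-numbered libraries share only a number: correlations of their deviations, over all genes, were 0.276 and 0.298 within WT, -0.086 to 0.522 with Cnot6l-/- and -0.062 to 0.642 with the group labelled Btg4-/-, and 2 pairs a comparison are too few to call them paired. Depth is unknown, so no floor can be given for genes near 0 FPKM.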

Other observations

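Rab17 lies on mm9 chromosome 1. Within 1000000 bases of Rab17, 12 other genes were tested. Against WT GV oocytes, 2 of them were called lower in Cnot6l-/- and 0 higher, where 3.02% of all genes tested were lower and 6.06% higher. Rbm44, which encodes an RNA-binding protein of germ cells, averaged 1.5 FPKM in Cnot6l-/- and 11.5 FPKM in WT, and Traf3ip1, of intraflagellar transport, 2.05 and 7.77 FPKM. Among those not called, Ilkap averaged 9.39 FPKM in Cnot6l-/- and 8.38 in WT, and Cops8 169 and 148 FPKM. Hes6 averaged 23.8 and 37.2 FPKM, Lrrfip1 35.4 and 49.2 FPKM, and Ube2f 31.7 and 19.4 FPKM. These genes were looked up after the values of Rab17 were seen.

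Over the 22 Rab genes with at least 10 FPKM in WT GV oocytes, the median share of the GV level left at MII was 45.0% in Cnot6l-/-, 39.3% in the group labelled Btg4-/- and 19.7% in WT. Over all such genes the medians were 37.2%, 36.1% and 11.7%. In WT, 9 of the 22 kept under 10% and 2 over 50%, against 46.9% and 12% of all such genes. These genes were chosen by their WT GV level, which is also the WT denominator, so the shares are a description.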
